A study of Mus musculus with 40 samples.

Results

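Nuclear RNA was measured in astrocytes that were given Cre to delete the glucocorticoid receptor (GR) and that matured in darkness. The comparison was of P28 DR GR-KO against P21 DR GR-KO, where P is the postnatal day, with 4 libraries at each age, so 8 of the 40 libraries of the series, and it covered all 17106 genes that were expressed well enough to be tested. Every mouse in these groups carried floxed GR alleles in both copies (GR fl/fl) and received an adeno-associated virus in primary visual cortex (V1) within a day of birth. In GR-KO the virus carried Cre recombinase and in the control, GR-Con, a ΔCre without catalytic activity, in both cases under the astrocyte promoter GfaABC1D with a GFP held at the nuclear membrane. DR mice lived in the dark until their tissue was taken, and normal-reared (NR) mice had light. Each library is a pool of V1 from 1 male and 1 female, from which nuclei positive for DRAQ5 and GFP were sorted, so that it reports nuclei in which the virus was active and holds no information on single animals or single cells.

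Cortical astrocytes are born around birth, divide, and then spend several weeks acquiring their branched form, their ion and transmitter transporters and their secreted matrix. Bone morphogenetic proteins (BMPs), Notch ligands and Sonic hedgehog are among the signals that act on them in this time: BMPs bind type I receptors such as BMPR1A, which phosphorylate SMAD proteins, and the SMADs switch on inhibitor of DNA binding (Id) genes and the feedback inhibitor Smad6. Glucocorticoids act through GR, a hormone-activated transcription factor encoded by Nr3c1. The comparison asked how the transcripts of astrocytes changed over the week from P21 to P28 in the dark and with GR targeted.

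The 8 libraries held 40775444 to 49221787 counts assigned to genes, with 18465 to 18694 genes detected in each. Nr3c1 was at 271, 272, 270.2 and 284 CPM at P21 and 309, 252, 250.2 and 242 CPM at P28 in replicates 1 to 4 (CPM, the gene's counts relative to the scaled total of the library), against 209 to 240.2 CPM in P21 DR GR-Con and 257 to 275 CPM in P28 DR GR-Con. Counts were taken over whole gene bodies, introns included, and a recombined allele is still transcribed outside its excised stretch, so this level does not test the knockout. The astrocyte identity list of 20 genes summed to 17007 to 19659 CPM at P21 and 16393 to 20153 CPM at P28. Neuron markers summed to 5769 to 6739 and 6326 to 6437 CPM and oligodendrocyte markers to 1065 to 1563 and 737 to 1423 CPM, so the sorted nuclei or the free RNA around them were not of astrocytes alone. P28 replicate 1 stood apart. Its oligodendrocyte markers summed to 737 CPM, against 1171 to 1423 CPM in the other P28 libraries, and its 20 ribosomal protein genes to 388 against 549 to 634 CPM. The slope of log2 CPM on log2 gene length was 0.054 there and -0.036 to 0.0099 in the other 7 libraries. The lowest slope, -0.036, was that of P28 replicate 3. Without P28 replicate 1, 399 genes were called, 334 of them in common with the full comparison. In such bulk samples fewer nuclei of a type and less RNA per nucleus cannot be told apart.

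From P21 to P28, 561 of the 17106 genes changed (3.28%), at an adjusted p below 0.05 and an absolute log2 fold change above 0.3, the threshold that the study set for ages. Of these, 325 were higher at P28 (1.9% of the genes tested) and 236 were lower (1.38%). This balance turned without P28 replicate 1 (187 higher, 212 lower) and without P21 replicate 1 (299 higher, 333 lower). The changes were moderate in size: the median absolute log2 fold change of the called genes was 0.58, and 87 genes (50 higher, 37 lower) passed 1. The median over all genes was -0.0041, which the scaling of the library totals keeps near 0, so it does not test for a shift shared by all genes. In 475 of the 561 genes the 4 values of one age lay entirely above the 4 of the other, which held for 10.1% of all genes tested. Called genes were long, with a median gene body of 67.2 kb for those that rose and 39.1 kb for those that fell, against 24.1 kb over all genes tested. Introns were counted, and P28 replicate 1 had the highest slope on gene length (0.054). The part of either in these lengths was not tested. The number of called genes was sensitive to single libraries, at 202 without P21 replicate 2, 209 without P21 replicate 4 and 211 without P28 replicate 2. The 40 leading genes are the 20 called genes of smallest p in each direction. They also had to reach 5 CPM in either group and not overlap between the ages. All 40 kept their calls in the 8 fits that left out 1 library. Since they were chosen for small p and for no overlap, neither trait is separate support for them.

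**Figure D1:**
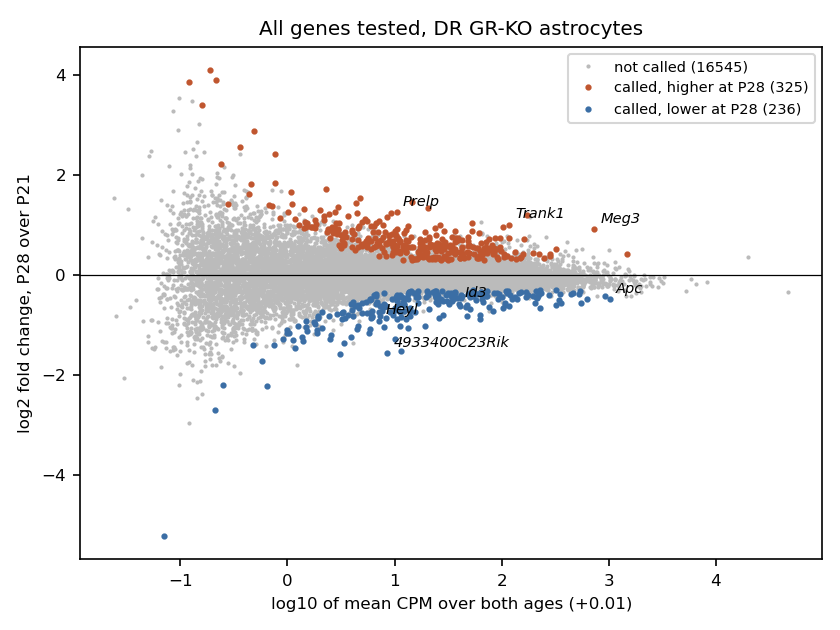
Change from P21 to P28 in DR GR-KO astrocytes (log2 fold change, vertical axis) against mean abundance (log10 CPM, horizontal axis) for the 17106 genes tested. Orange points are the 325 genes called higher at P28, blue points the 236 called lower, and grey points were not called. Called genes are spread over the range of abundance, and most lie within 1 log2 unit of no change.

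Several genes of the BMP pathway and their Id targets fell. Of 20 BMP and TGF-β pathway genes tested, 4 fell and 1 rose (median log2 fold change -0.087), and of 19 genes of immature glia, 4 fell, Id1 and Id3 among them, and 1 rose (median -0.15). Over all genes tested 1.38% fell and 1.9% rose, and the counts of the lists that follow stand against the same shares. The Id proteins pair with basic helix-loop-helix transcription factors and keep them off DNA. Id3 was at 43.5, 50.1, 48 and 48.3 CPM at P21 and 29.8, 28.2, 38.1 and 31.7 CPM at P28. Id3 was lower in each P28 library than in any P21 library (log2 fold change -0.57 ± 0.085 SE, adjusted p = 0.000437). The P14 DR GR-KO libraries had 31.5, 35.9 and 29.7 CPM of Id3, also below each P21 library. Id1, at far fewer counts, was at 8.11, 10.5, 10.0 and 9.63 CPM at P21 and 5.13, 4.31, 7.69 and 6.05 CPM at P28. Id1 fell, its values at the 2 ages lying fully apart (log2 fold change -0.72 ± 0.16 SE, adjusted p = 0.00817). Id2 was at 74.6, 68.7, 80.6 and 72.7 CPM at P21 and 46.7, 53.3, 62.7 and 60.6 CPM at P28. Id2 fell with no overlap between the ages (log2 fold change -0.41 ± 0.10 SE, adjusted p = 0.0186). Id4, the remaining family member, had a log2 fold change of -0.29 with an adjusted p of 0.0457, inside the fold limit and so not called.

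A receptor and 2 SMADs of the pathway fell as well. Bmpr1a, a type I BMP receptor, was at 255, 259, 239 and 262 CPM at P21 and 202, 194, 193 and 193 CPM at P28. Bmpr1a was lower in each P28 library than in any P21 library (log2 fold change -0.38 ± 0.073 SE, adjusted p = 0.00354). Smad6, the inhibitor that BMP signalling itself induces, was at 60.0, 58.2, 49.1 and 60.2 CPM at P21 and 36.6, 42.1, 34.9 and 37.6 CPM at P28. Smad6 fell, its values at the 2 ages lying fully apart (log2 fold change -0.59 ± 0.11 SE, adjusted p = 0.00228). Smad9, one of the SMADs that BMP receptors phosphorylate, was at 25.5, 28.7, 26.2 and 29 CPM at P21 and 18.8, 20.7, 23 and 19.9 CPM at P28. Smad9 fell with no overlap between the ages (log2 fold change -0.41 ± 0.097 SE, adjusted p = 0.0144). Gdf10, a secreted member of the TGF-β superfamily, rose from 3.12–5.17 CPM at P21 to 5.32–7.54 CPM at P28 (log2 fold change 0.61 ± 0.17 SE, adjusted p = 0.0304), as the single riser of the list. The ligands Bmp4, Bmp6 and Bmp7, the receptors Bmpr1b and Bmpr2 and the second inhibitory SMAD, Smad7, had log2 fold changes of -0.10, -0.084, -0.12, -0.26, -0.098 and 0.049, and none passed the test. The calls for Id3, Bmpr1a and Smad6 held when each library was left out, and other calls did not. Id1 lost its call without P28 replicate 2 (adjusted p = 0.0551) and Id2 without any 1 of P21 replicates 3 and 4 and P28 replicates 1 and 2 (adjusted p up to 0.086). Smad9 lost its call without any 1 of P21 replicates 2 and 4 and P28 replicate 1 (adjusted p up to 0.0593) and Gdf10 without any 1 of P21 replicates 1, 2 and 4 and P28 replicates 2 and 4 (adjusted p up to 0.142). Id1, Id2 and Gdf10 were also not called when the 8 libraries were fitted without the other groups. With the fold limit inside the test (glmTreat), none of Id1, Id2, Id3, Bmpr1a, Smad6, Smad9 and Gdf10 was called.

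The starts of the 2 SMAD genes that fell are shown because SMAD complexes activated by BMPs are known to bind a GC-rich element, GGCGCC, which reads the same on both strands. Each run gives the 250 bases before the RefSeq start (GRCm38.p6), 5′ to 3′ on the strand of the gene, with the element in capitals where it occurs. Smad6 is read from chr9:64022060-64022309 (minus strand) and Smad9 from chr3:54755332-54755581 (plus strand).
Smad6: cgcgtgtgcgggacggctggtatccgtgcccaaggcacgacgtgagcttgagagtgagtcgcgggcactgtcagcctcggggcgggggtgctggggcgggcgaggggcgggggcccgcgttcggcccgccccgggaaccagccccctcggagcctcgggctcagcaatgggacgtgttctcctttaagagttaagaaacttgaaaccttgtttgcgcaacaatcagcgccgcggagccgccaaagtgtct
Smad9: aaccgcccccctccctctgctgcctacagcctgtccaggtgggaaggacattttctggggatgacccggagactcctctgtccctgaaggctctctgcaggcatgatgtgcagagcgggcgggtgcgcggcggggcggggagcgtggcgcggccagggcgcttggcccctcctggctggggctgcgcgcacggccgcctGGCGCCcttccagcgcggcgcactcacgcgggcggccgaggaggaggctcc
Smad9 holds 1 copy, beginning 51 bases before the start, and Smad6 holds none. Among the other genes described above that fell, the same windows of Id2 and Bmpr1a hold 1 copy each, that of Id3 holds none, and that of Id1 was not analysed here. The window of Gdf10, which rose, holds 0 copies. Of the 20 pathway genes, which do not include Id1 or Id3, 15 had a window and 5 hold the element, with 1 window taken per gene. Over all genes 9.59% of 32851 windows hold it. These were not limited to 1 per gene, so the 2 shares are not in like units. These are matches of letters, and binding was not measured here.

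**Figure D2:**
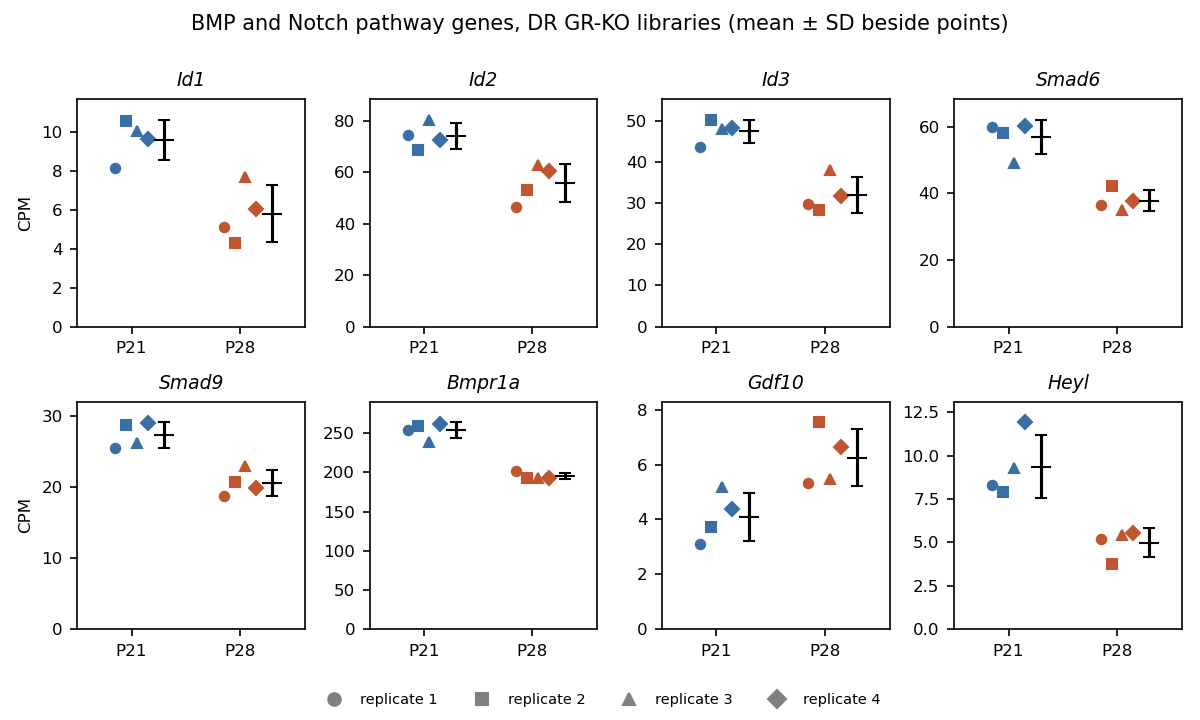
CPM of BMP pathway genes, their Id targets and the Notch effector Heyl in the 4 P21 (blue) and 4 P28 (orange) DR GR-KO libraries, with the marker shape giving the replicate and the bar the mean ± SD. In Id1, Id2, Id3, Smad6, Smad9, Bmpr1a and Heyl every P28 library lies below every P21 library, and in Gdf10 above.

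Other genes that mark young or dividing glia were mixed. Fabp7, the fatty acid binding protein of radial glia, was at 40.9, 40.8, 39.3 and 34.6 CPM at P21 and 24.7, 32.2, 25.7 and 21.1 CPM at P28. Fabp7 was lower in each P28 library than in any P21 library (log2 fold change -0.58 ± 0.16 SE, adjusted p = 0.0296). Its mean in the 3 P14 DR GR-KO libraries was 100.2 CPM. Dbi, which binds acyl-CoA esters, was at 58 to 69.4 CPM at P21 and 43.9 to 50.0 CPM at P28 (log2 fold change -0.39 ± 0.089 SE, adjusted p = 0.0101). Igfbp2, a secreted binding protein for insulin-like growth factors, was at 17.7, 13.8, 16.5 and 14.5 CPM at P21 and 28.7, 25.5, 26.3 and 24.9 CPM at P28. Igfbp2 rose, its values at the 2 ages lying fully apart (log2 fold change 0.75 ± 0.14 SE, adjusted p = 0.00253). Its mean at P14 was 59.5 CPM, higher than at either later age. The intermediate filament genes Vim and Nes, at log2 fold changes of 0.31 and 0.043, and the transcription factor genes Sox4, Sox11, Hes1 and Hes5, at -0.008, -0.16, -0.0018 and -0.15, did not pass the test.

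In the Notch pathway 1 of 18 genes rose and 1 fell, against 1.9% and 1.38% of all genes tested. Heyl, a transcription factor gene switched on by Notch, was at 8.34, 7.93, 9.3 and 11.9 CPM at P21 and 5.21, 3.75, 5.44 and 5.52 CPM at P28. Heyl fell with no overlap between the ages (log2 fold change -0.91 ± 0.20 SE, adjusted p = 0.00803). The ligand gene Jag2 rose from 7.77–8.61 CPM at P21 to 10.0–12 CPM at P28 (log2 fold change 0.41 ± 0.12 SE, adjusted p = 0.0476). In the Sonic hedgehog pathway, Gli1, the transcription factor gene that hedgehog signalling induces, was the 1 gene of 12 to pass, at 14.4, 17.1, 16.9 and 20.9 CPM at P21 and 11.2, 4.43, 12.8 and 13.7 CPM at P28. Gli1 was lower in each P28 library than in any P21 library (log2 fold change -0.72 ± 0.21 SE, adjusted p = 0.0479). Its P28 value in replicate 2 was the lowest of the 8, and Gli1 shares 79.8% of its gene body with genes on the other strand. The receptors Ptch1 and Smo had log2 fold changes of -0.16 and -0.17 and were not called. In the Wnt pathway 2 of 21 genes tested passed, against 3.28% of all genes tested. Rnf43, a ubiquitin ligase that removes Wnt receptors, rose from 3.02–5.37 CPM at P21 to 6.45–7.11 CPM at P28 (log2 fold change 0.61 ± 0.16 SE, adjusted p = 0.0275). Ror2, a receptor for Wnt5a, fell from 12.5–17.2 CPM at P21 to 9.09–13.1 CPM at P28 (log2 fold change -0.48 ± 0.14 SE, adjusted p = 0.042). Apc, a scaffold of the complex that degrades β-catenin, was among the 20 leading genes that fell, at 1264, 1153, 1187 and 1166 CPM at P21 and 771, 817, 890.3 and 943 CPM at P28. Apc fell, its values at the 2 ages lying fully apart (log2 fold change -0.48 ± 0.079 SE, adjusted p = 0.00101). Fabp7 lost its call without any 1 of P21 replicates 1, 2 and 3 and P28 replicates 1, 3 and 4 (adjusted p up to 0.0941) and Dbi without P21 replicate 2 (adjusted p = 0.0628). Heyl lost its call without P28 replicate 2 (adjusted p = 0.0504) and Jag2 without any 1 of the 8 libraries (adjusted p up to 0.139). Gli1 lost its call without any 1 of P21 replicates 2, 3 and 4 and P28 replicates 1 and 2 (adjusted p up to 0.187) and Rnf43 without any 1 of P21 replicates 1 and 4 and P28 replicates 2 and 3 (adjusted p up to 0.101). Ror2 lost its call without any 1 of P21 replicates 1, 2 and 4 and P28 replicates 2, 3 and 4 (adjusted p up to 0.137). Jag2, Gli1, Rnf43 and Ror2 were also not called with the 8 libraries alone, nor were Jag2 and Gli1 without the filter on low counts or with summed neuron and oligodendrocyte markers as covariates.

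Of the matrix genes that the study counts as immature, 2 fell between P21 and P28. Tnc, which encodes tenascin-C, a glycoprotein of the developing matrix, was at 651, 673, 566 and 719 CPM at P21 and 443, 415, 441 and 465 CPM at P28. Tnc fell with no overlap between the ages (log2 fold change -0.56 ± 0.11 SE, adjusted p = 0.00354). Adamts9, a secreted protease that cuts proteoglycans, was at 356, 461, 398 and 499 CPM at P21 and 334, 264, 266 and 294 CPM at P28. Adamts9 was lower in each P28 library than in any P21 library (log2 fold change -0.57 ± 0.14 SE, adjusted p = 0.02). The P14 DR GR-KO libraries had 214, 226 and 303 CPM of Adamts9, below each P21 library. For Tnc they had 794, 734 and 981 CPM, above each P21 library. The call of Adamts9 was lost without P21 replicate 2 or 4 or P28 replicate 2 or 3 (adjusted p up to 0.0843), and that of Tnc was not lost in any of the 8 fits. Neither was called with the fold limit inside the test. A gene annotated on the opposite strand covers 77% of the Tnc gene body and others 28.6% of Adamts9, and whether the counts kept to 1 strand is not stated by the labels or methods. The remaining 6 of the 8 immature matrix genes did not pass: the log2 fold change was -0.095 (95% interval -0.24 to 0.052) for the proteoglycan gene Vcan, -0.20 (95% interval -0.41 to 0.0085) for Adamts5, 0.00047 (95% interval -0.32 to 0.32) for Adamts12, 0.027 (95% interval -0.25 to 0.30) for Adamts16, 0.54 (95% interval -0.0059 to 1.08) for Mmp2 and 0.0035 (95% interval -0.18 to 0.19) for Mmp14, the last 5 encoding secreted or membrane-bound proteases. None of the 4 mature matrix genes passed either (2 at an unadjusted p below 0.05, 0 called by DESeq2): the log2 fold change of Cntn1 was 0.074 (95% interval -0.15 to 0.30), that of Fbln1 0.21 (95% interval 0.013 to 0.40), that of Prom1 -0.28 (95% interval -0.58 to 0.019) and that of Scrg1 -0.36 (95% interval -0.68 to -0.028). The study named both lists for their change on loss of GR in libraries of this series, so their direction is not independent evidence.

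Tnc was the 1 gene of 17106 whose change with age differed between GR-KO and GR-Con in the dark (0.00585% of genes tested by edgeR, 1886 at an unadjusted p below 0.05, and also 1 gene by DESeq2). In P21 DR GR-Con it was at 216, 234, 243 and 225 CPM and in P28 DR GR-Con at 259, 256, 317 and 307 CPM, so that the control values were higher at the later age and the GR-KO values lower. The GR-Con change was 0.31 on the log2 scale (adjusted p = 0.0827), and the difference of the 2 changes was -0.88 ± 0.16 (SE, 95% interval -1.19 to -0.56, adjusted p = 0.0397). Every GR-KO library at P28 still lay above every GR-Con library of either age. Leaving out 1 of the 16 libraries in turn gave differences from -0.93 to -0.82 with adjusted p from 0.0168 to 0.204, and the call was lost in 13 of the 16 fits (all but those without P21 DR GR-KO replicate 3 or P28 DR GR-Con replicate 1 or 2). Vcan came next (difference -0.49, adjusted p = 0.254): it was at 128 to 148 CPM at P21 and 124 to 131 CPM at P28 in GR-KO and went from 52.3 to 56.5 CPM to 66.4 to 76.2 CPM in GR-Con. For Adamts9 the difference was -0.62 (adjusted p = 0.446), with GR-Con values of 185 to 248 CPM at P21 and 216 to 244 CPM at P28.

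**Figure D3:**
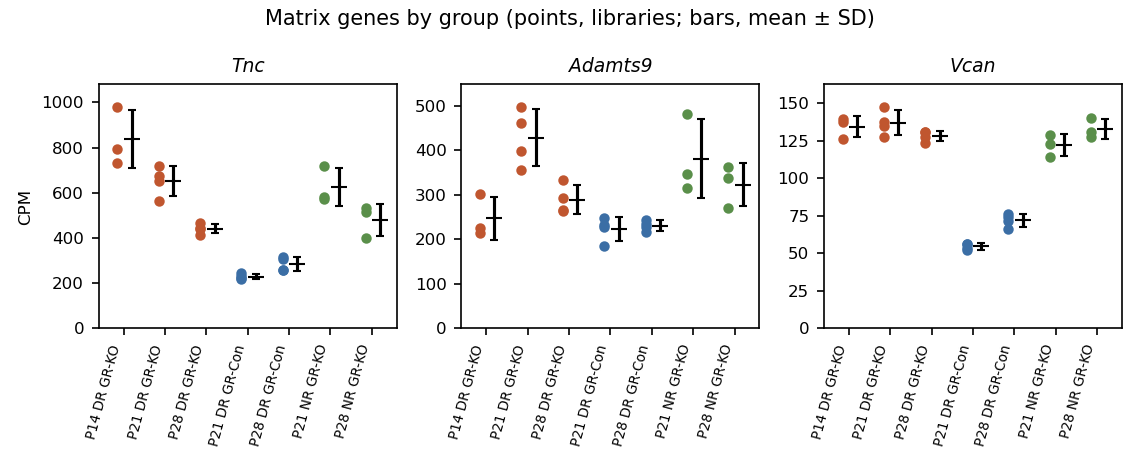
CPM of Tnc, Adamts9 and Vcan by group, each point a library and each bar the mean ± SD (orange DR GR-KO, blue DR GR-Con, green NR GR-KO). Tnc in DR GR-KO steps down from P14 to P28 (mean 836 CPM at P14) and stays above both GR-Con ages, whereas Vcan in DR GR-KO stays between 124 and 148 CPM. Adamts9 in DR GR-KO lies at 214 to 303 CPM at P14, below each of its P21 libraries.

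Other genes of the extracellular matrix moved in both directions. Prelp, which encodes a small leucine-rich proteoglycan that anchors basement membranes to connective tissue, had the smallest p of all, at 6.24, 6.17, 6.72 and 5.63 CPM at P21 and 12.3, 15, 16.9 and 15 CPM at P28. Prelp rose, its values at the 2 ages lying fully apart (log2 fold change 1.26 ± 0.17 SE, adjusted p = 7.19e-05). Its P14 mean was 3.63 CPM, and a gene on the other strand covers 40.7% of its gene body. Col5a1, a chain of fibrillar collagen V, was at 16.6, 15.8, 19.8 and 18.4 CPM at P21 and 42.8, 31.9, 31.8 and 34.1 CPM at P28. Col5a1 rose with no overlap between the ages (log2 fold change 1.00 ± 0.16 SE, adjusted p = 0.00101). In the list of proteoglycans, hyaluronan and perineuronal net genes, 2 of 20 rose and 2 fell, Tnc being one of the latter. The link proteins, which tie proteoglycans to hyaluronan, were split. Hapln4 was at 10.6, 7.52, 7.9 and 6.32 CPM at P21 and 8.9, 14.1, 16.4 and 13.7 CPM at P28, its replicate 1 at P28 falling within the P21 range. Hapln4 rose, although the ages overlapped (log2 fold change 0.71 ± 0.17 SE, adjusted p = 0.0161). Hapln2, a link protein of nodes of Ranvier, was scarce at 0.958, 0.532, 0.753 and 0.988 CPM at P21 and 1.55, 2.29, 2.22 and 2.0 CPM at P28. Hapln2 was higher in each P28 library than in any P21 library (log2 fold change 1.32 ± 0.34 SE, adjusted p = 0.0232). Hapln3 fell from 4.81–6.31 CPM at P21 to 2.87–4.11 CPM at P28 (log2 fold change -0.60 ± 0.15 SE, adjusted p = 0.0232), and Hapln1 did not pass (log2 fold change -0.019). The large proteoglycans Acan, Bcan and Ncan had log2 fold changes of 0.28, 0.063 and 0.076 and were not called. Among 19 collagen and basement membrane genes 2 fell and none rose, the transmembrane collagen Col23a1 from 68.6–85.7 CPM at P21 to 48.3–65.5 CPM at P28 (log2 fold change -0.49 ± 0.12 SE, adjusted p = 0.0174) and the basement membrane collagen Col4a6 from 12.2–17.6 CPM at P21 to 8.77–11 CPM at P28 (log2 fold change -0.54 ± 0.16 SE, adjusted p = 0.0457). Prelp and Col5a1 kept their calls in all 8 left-out fits. Hapln4 lost its call without any 1 of P21 replicates 2 and 4 and P28 replicates 2 and 3 (adjusted p up to 0.0881) and Hapln2 without any 1 of P21 replicates 2 and 3 and P28 replicates 2 and 3 (adjusted p up to 0.0997). Hapln3 lost its call without any 1 of P21 replicate 2 and P28 replicates 3 and 4 (adjusted p up to 0.0915) and Col23a1 without any 1 of P21 replicate 4 and P28 replicates 2 and 3 (adjusted p up to 0.0781). Col4a6 lost its call without any 1 of P21 replicates 2, 3 and 4 and P28 replicates 2, 3 and 4 (adjusted p up to 0.186). Hapln3, Hapln4 and Col4a6 were also not called with the 8 libraries alone.

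Of 20 astrocyte identity genes, 1 rose and 1 fell, and the median log2 fold change was -0.023. Gfap, the intermediate filament gene of astrocytes, was at 323, 444, 414 and 429.8 CPM at P21 and 274, 279, 299 and 292 CPM at P28. Gfap fell, its values at the 2 ages lying fully apart (log2 fold change -0.49 ± 0.11 SE, adjusted p = 0.00695). The Gfap gene body lies wholly under a gene on the other strand in the annotation. The glutamate transporters Slc1a2 and Slc1a3 had log2 fold changes of -0.15 and -0.085, the water channel Aqp4 at 0.076, the gap junction gene Gja1 at 0.32 and the potassium channel Kcnj10 at -0.048, and none was called. No gene of the 20 further channels and transporters passed either by edgeR or by DESeq2, with 4 at an unadjusted p below 0.05.

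None of the 5 maturation markers named by the study passed the test between P21 and P28, by edgeR or by DESeq2, and 1 had an unadjusted p below 0.05. Gjb6, a gap junction gene, was at 75, 94, 86.6 and 88.5 CPM at P21 and 94.1, 98.3, 91.1 and 74.2 CPM at P28, the 2 ages overlapping. Gjb6 had a log2 fold change of 0.056, with a 95% interval of -0.19 to 0.31. Fam107a was at 201 to 220.3 CPM at P21 and 192 to 226 CPM at P28. Fam107a had a log2 fold change of -0.063, with a 95% interval of -0.34 to 0.21. Ezr, which links actin to the membrane, was at 95.9 to 110.1 CPM at P21 and 105 to 126 CPM at P28. Ezr had a log2 fold change of 0.19, with a 95% interval of 0.0094 to 0.37. Aldh1a1, an enzyme of retinoic acid synthesis, was at 43.9 to 58.1 CPM at P21 and 42.7 to 54.4 CPM at P28. Aldh1a1 had a log2 fold change of -0.19, with a 95% interval of -0.51 to 0.13. Etnppl, a phospholyase of ethanolamine phosphate, was at 3.36 to 5.54 CPM at P21 and 3.43 to 5.76 CPM at P28, against a mean of 0.135 CPM at P14. Etnppl had a log2 fold change of -0.032, with a 95% interval of -0.76 to 0.69. The intervals for Gjb6 and Fam107a leave room for changes of no more than 0.34 log2 units in either direction, and that for Etnppl is much wider.

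Of 20 genes induced by glucocorticoids 1 passed the test, against 3.28% of all genes tested. This was Sgk1, a kinase gene that also responds to other signals, at 15.4, 11.8, 14.7 and 15.1 CPM at P21 and 22.5, 26.2, 20.2 and 19 CPM at P28. Sgk1 rose with no overlap between the ages (log2 fold change 0.62 ± 0.16 SE, adjusted p = 0.0241). The list's median log2 fold change was -0.017. Sgk1 lost its call without any 1 of P21 replicates 2 and 4 and P28 replicate 2 (adjusted p up to 0.113). The classical targets Fkbp5, Tsc22d3 and Per1 had log2 fold changes of 0.22, 0.11 and 0.35 and the metallothionein genes Mt1 and Mt2 at -0.10 and -0.29, none of them called. Pgr, the progesterone receptor gene, chosen after its values were seen, was at 30.8, 25.7, 26.9 and 27.9 CPM at P21 and 33.1, 31.8, 37.5 and 36.1 CPM at P28. Pgr was higher in each P28 library than in any P21 library (log2 fold change 0.31 ± 0.083 SE, adjusted p = 0.0274). Among 20 nuclear receptors and partners, Nr2f2, an orphan receptor gene, fell from 14.2–19.3 CPM at P21 to 5.0–11.6 CPM at P28 (log2 fold change -0.87 ± 0.20 SE, adjusted p = 0.0117). In the thyroid hormone and retinoid list 2 of 19 genes rose, among them Rarb, a retinoic acid receptor, from 33.8–43.6 CPM at P21 to 45.2–52 CPM at P28 (log2 fold change 0.39 ± 0.11 SE, adjusted p = 0.0477). Pgr lost its call without any 1 of P21 replicates 2, 3 and 4 and P28 replicates 3 and 4 (adjusted p up to 0.112) and Nr2f2 without P28 replicate 1 (adjusted p = 0.0526). Rarb lost its call without any 1 of P21 replicates 2, 3 and 4 and P28 replicates 1, 2, 3 and 4 (adjusted p up to 0.145). All 3 were also not called with the 8 libraries alone.

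Among genes for calcium release and transmitter signals, members rose and fell. Ryr2, a ryanodine receptor that releases calcium from the endoplasmic reticulum, was at 277, 249.6, 292 and 244 CPM at P21 and 421, 382, 349 and 374 CPM at P28. Ryr2 rose, its values at the 2 ages lying fully apart (log2 fold change 0.52 ± 0.10 SE, adjusted p = 0.00354). Ryr3, its relative, and Itpr1, the inositol trisphosphate receptor, were chosen after their values were seen. Ryr3 was at 36.1, 35.6, 39.3 and 34.4 CPM at P21 and 81.9, 67.4, 45.6 and 51.4 CPM at P28. Ryr3 rose with no overlap between the ages (log2 fold change 0.76 ± 0.17 SE, adjusted p = 0.00905). P28 replicate 1 was the highest. Itpr1 was at 279, 227, 248 and 219 CPM at P21 and 256, 336, 350.4 and 327 CPM at P28, with P28 replicate 1 inside the P21 range. Itpr1 rose, although the ages overlapped (log2 fold change 0.38 ± 0.095 SE, adjusted p = 0.0188). Itpr2, the form most used by astrocytes, did not pass (log2 fold change 0.019). Camkk1, a kinase that calcium and calmodulin activate, was at 22.9, 19.6, 21.2 and 19.2 CPM at P21 and 26.3, 33.8, 29.7 and 29.8 CPM at P28. Camkk1 was higher in each P28 library than in any P21 library (log2 fold change 0.53 ± 0.092 SE, adjusted p = 0.00162). Of 19 transmitter receptor genes fixed as a list 1 rose, Gria4, an AMPA receptor subunit from 70.9–89.1 CPM at P21 to 95.9–145 CPM at P28 (log2 fold change 0.56 ± 0.14 SE, adjusted p = 0.0228). Grin3a, an NMDA receptor subunit outside that list, was at 252, 257, 217 and 245 CPM at P21 and 171, 159, 159 and 171 CPM at P28. Grin3a fell, its values at the 2 ages lying fully apart (log2 fold change -0.56 ± 0.097 SE, adjusted p = 0.00162). Rgs9, which speeds the shutdown of G proteins, fell from 45.9–51.6 CPM at P21 to 35.6–36.5 CPM at P28 (log2 fold change -0.42 ± 0.072 SE, adjusted p = 0.0015). Gucy2f, a guanylate cyclase known from the retina, was at 9.09, 15.1, 15.8 and 17.1 CPM at P21 and 7.0, 3.79, 5.46 and 7.39 CPM at P28. Gucy2f fell with no overlap between the ages (log2 fold change -1.28 ± 0.22 SE, adjusted p = 0.00162). Ntsr2, a neurotensin receptor of astrocytes chosen after its values were seen, fell from 572–819.9 CPM at P21 to 446–554 CPM at P28 (log2 fold change -0.48 ± 0.13 SE, adjusted p = 0.026), and Gpr37l1, an astrocyte receptor for prosaposin chosen in the same way, rose from 62.5–76 CPM at P21 to 81.2–107 CPM at P28 (log2 fold change 0.48 ± 0.14 SE, adjusted p = 0.0457). Itpr1 lost its call without any 1 of P21 replicates 2 and 4 and P28 replicates 2 and 3 (adjusted p up to 0.102) and Gria4 without any 1 of P21 replicates 2 and 4 and P28 replicate 1 (adjusted p up to 0.0952). Ntsr2 lost its call without any 1 of P21 replicates 2, 3 and 4 and P28 replicate 2 (adjusted p up to 0.118) and Gpr37l1 without any 1 of P21 replicates 2, 3 and 4 and P28 replicates 2, 3 and 4 (adjusted p up to 0.149). Itpr1 and Ntsr2 were also not called with the 8 libraries alone.

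Non-coding genes of the imprinted Dlk1-Dio3 cluster rose. Of 17 imprinted genes, Meg3 and Grb10 passed and none fell, against 3.28% called of all genes tested. Meg3, a long non-coding RNA expressed from the maternal copy, was at 446, 494, 588 and 502 CPM at P21 and 1294, 970.5, 716 and 838 CPM at P28. Meg3 was higher in each P28 library than in any P21 library (log2 fold change 0.91 ± 0.19 SE, adjusted p = 0.0068). Rian and Mirg lie further along the same cluster and were chosen after their values were seen. Rian was at 129, 118, 141 and 107 CPM at P21 and 259, 222, 159 and 169 CPM at P28. Rian rose, its values at the 2 ages lying fully apart (log2 fold change 0.71 ± 0.15 SE, adjusted p = 0.00673). Mirg was at 4.34, 6.14, 6.11 and 5.48 CPM at P21 and 21.8, 13.2, 7.69 and 9.76 CPM at P28. Mirg rose with no overlap between the ages (log2 fold change 1.25 ± 0.30 SE, adjusted p = 0.0171). In all 3, replicate 1 was the highest and replicate 3 the lowest of the P28 libraries. Replicates 1 and 3 of P28 were also the highest and lowest of the libraries compared in the slope on gene length. Meg3 and Rian kept their calls when any 1 library was left out, and Mirg did not. Mirg lost its call without any 1 of P21 replicate 4 and P28 replicate 1 (adjusted p up to 0.0923). Grb10, an adaptor that restrains insulin signalling, rose from 17.4–22.1 CPM at P21 to 25.4–28 CPM at P28 (log2 fold change 0.36 ± 0.098 SE, adjusted p = 0.0331). Mir124a-1hg, the host of a miR-124 precursor, a microRNA of neurons, was at 10.1, 11.4, 14.8 and 10.7 CPM at P21 and 42.1, 35.5, 20.4 and 20.7 CPM at P28. Mir124a-1hg was higher in each P28 library than in any P21 library (log2 fold change 1.33 ± 0.22 SE, adjusted p = 0.00101).

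Efna5, an ephrin that repels axons, was at 38.9, 41, 52.8 and 44.3 CPM at P21 and 123, 84.9, 47.8 and 62.2 CPM at P28. Efna5 rose, although the ages overlapped (log2 fold change 0.84 ± 0.22 SE, adjusted p = 0.0253). P28 replicate 3 was inside the P21 range. Cdh8, a cadherin, was at 35.2, 36.9, 46 and 38 CPM at P21 and 79.4, 60.5, 42.4 and 54.6 CPM at P28. Cdh8 rose, although the ages overlapped (log2 fold change 0.60 ± 0.17 SE, adjusted p = 0.0457). Rbfox3, the splicing factor known as NeuN, was at 116, 109, 119.9 and 105 CPM at P21 and 196, 148, 135 and 143 CPM at P28. Rbfox3 rose, its values at the 2 ages lying fully apart (log2 fold change 0.46 ± 0.13 SE, adjusted p = 0.0457). In Efna5, Cdh8 and Rbfox3 too, replicate 1 was the highest and replicate 3 the lowest at P28. Rbfox3 was the 1 gene of 20 neuron markers to pass (median log2 fold change of the list 0.02), Snap25, Slc17a7 and Gad1 having log2 fold changes of 0.27, -0.15 and 0.011. Celsr3, a planar cell polarity cadherin, rose from 13.8–18.3 CPM at P21 to 22.2–30.2 CPM at P28 (log2 fold change 0.62 ± 0.11 SE, adjusted p = 0.00177). Among 22 axon guidance genes Sema3e, a secreted semaphorin, also rose from 23.8–29.9 CPM at P21 to 34.3–41.8 CPM at P28 (log2 fold change 0.44 ± 0.13 SE, adjusted p = 0.0457), and Sema6a, a membrane-bound one, was at 219, 241, 216 and 226 CPM at P21 and 175, 167, 157 and 172 CPM at P28. Sema6a fell with no overlap between the ages (log2 fold change -0.43 ± 0.082 SE, adjusted p = 0.00354). Nrp2, a semaphorin receptor, was at 120.4, 166, 131 and 152 CPM at P21 and 84.2, 102, 90.5 and 96.9 CPM at P28. Nrp2 was lower in each P28 library than in any P21 library (log2 fold change -0.61 ± 0.11 SE, adjusted p = 0.003). The protocadherin gene Pcdh19 fell from 36.9–40.3 CPM at P21 to 25.7–31.7 CPM at P28 (log2 fold change -0.43 ± 0.095 SE, adjusted p = 0.00914). Grb10 lost its call without any 1 of P21 replicates 2 and 4 and P28 replicates 1, 2, 3 and 4 (adjusted p up to 0.16) and Efna5 without any 1 of P21 replicates 1, 2 and 4 and P28 replicates 1 and 2 (adjusted p up to 0.142). Cdh8 lost its call without any 1 of P21 replicates 1, 2 and 4 and P28 replicates 1, 2 and 4 (adjusted p up to 0.179) and Rbfox3 without any 1 of P21 replicates 1, 2, 3 and 4 and P28 replicates 1 and 2 (adjusted p up to 0.176). Sema3e lost its call without any 1 of P21 replicates 2, 3 and 4 and P28 replicates 1, 2, 3 and 4 (adjusted p up to 0.177). Grb10, Efna5, Cdh8, Rbfox3 and Sema3e were also not called with the 8 libraries alone. With the summed neuron and oligodendrocyte markers as covariates, Cdh8, Rbfox3 and Grb10 were also not called.

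**Figure D4:**
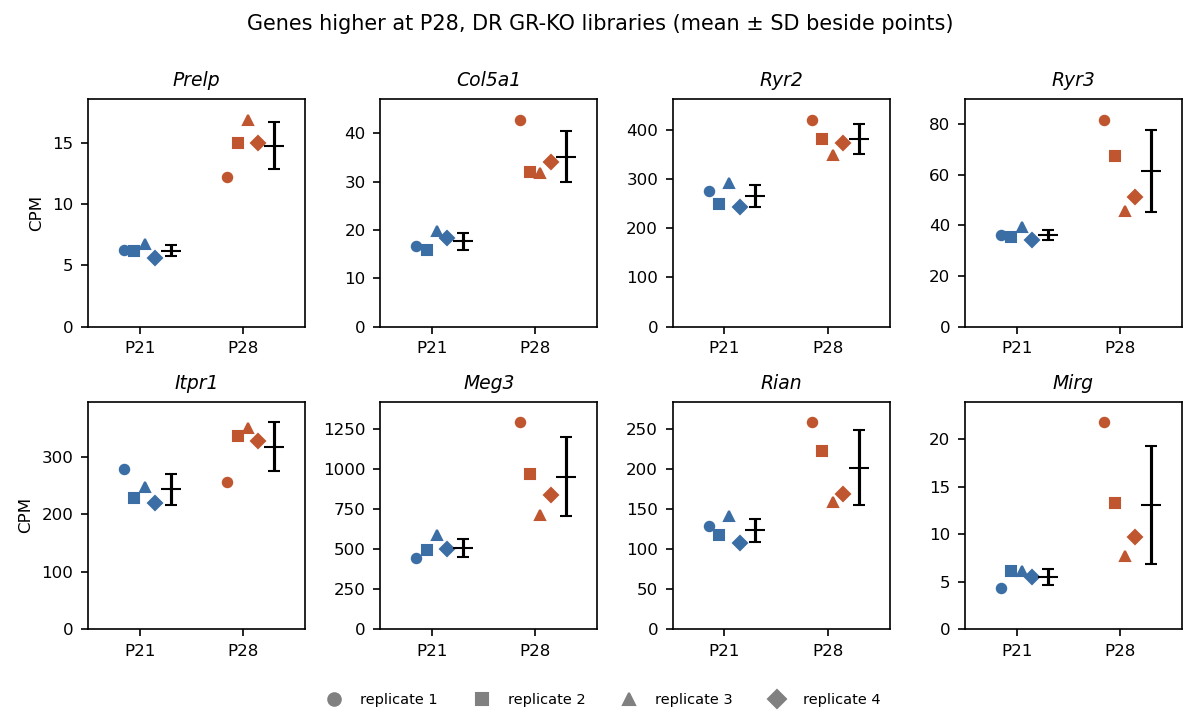
CPM of genes that were higher at P28, by library (P21 blue, P28 orange, marker shape the replicate, bar the mean ± SD). The ages do not overlap in any of the genes shown but Itpr1, and in Ryr2, Ryr3, Meg3, Rian and Mirg replicate 1 is the highest and replicate 3 the lowest at P28.

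Of the other leading genes that rose, several encode enzymes and cytoskeletal or adaptor proteins. Lpcat2, an acyltransferase that remodels membrane phospholipids, was at 3.57, 3.65, 3.47 and 2.69 CPM at P21 and 8.05, 7.26, 6.52 and 7.29 CPM at P28. Lpcat2 rose, its values at the 2 ages lying fully apart (log2 fold change 1.12 ± 0.15 SE, adjusted p = 7.19e-05). Trank1, a large protein with ankyrin repeats, was at 74, 74.7, 91 and 72.1 CPM at P21 and 191, 160.2, 135 and 140.1 CPM at P28. Trank1 rose with no overlap between the ages (log2 fold change 1.01 ± 0.16 SE, adjusted p = 0.00101). Dock10, an exchange factor for small GTPases, was at 33.3, 28.6, 26.5 and 28.1 CPM at P21 and 52.7, 46.8, 46.3 and 48.4 CPM at P28. Dock10 was higher in each P28 library than in any P21 library (log2 fold change 0.74 ± 0.13 SE, adjusted p = 0.00162). Jade2, a subunit of histone acetyltransferase complexes, rose from 26.4–29.1 CPM at P21 to 36.2–46.2 CPM at P28 (log2 fold change 0.58 ± 0.10 SE, adjusted p = 0.00162) and had a mean of 11.7 CPM at P14. Tmem63a, a mechanically gated channel, Plekha6 and Ablim3, an actin-binding protein, had log2 fold changes of 0.69, 0.43 and 0.84. Pik3c2b, a lipid kinase, Ica1, a coat protein of secretory vesicles, Atp6ap1l and Gm5468 had log2 fold changes of 0.76, 0.69, 0.74 and 0.81. The adjusted p of the 40 leading genes was at most 0.00354. Genes on the other strand cover 34.8% of Gm5468, 29% of Pik3c2b, 18.6% of Tmem63a and 13.9% of Plekha6.

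Ikzf1, which encodes the blood cell transcription factor Ikaros, was also among the leading genes, at 2.49, 2.18, 2.56 and 1.85 CPM at P21 and 4.21, 5.8, 4.99 and 5.45 CPM at P28. Ikzf1 rose, its values at the 2 ages lying fully apart (log2 fold change 1.17 ± 0.21 SE, adjusted p = 0.00228). Another 3 genes known from blood and microglia were taken up after their values were seen. Fli1 was at 3.24, 2.76, 2.82 and 1.88 CPM at P21 and 6.53, 7.54, 4.79 and 6.3 CPM at P28. Fli1 rose with no overlap between the ages (log2 fold change 1.23 ± 0.24 SE, adjusted p = 0.00379). Apbb1ip rose from 2.07–3.48 CPM at P21 to 4.63–6.28 CPM at P28 (log2 fold change 0.85 ± 0.20 SE, adjusted p = 0.0118). Dock2 rose from 3.05–4.25 CPM at P21 to 5.29–6.09 CPM at P28 (log2 fold change 0.71 ± 0.20 SE, adjusted p = 0.0445). No microglia marker passed by edgeR or DESeq2, of 13 tested, and 0 had an unadjusted p below 0.05 (log2 fold change of Csf1r 0.19, Cx3cr1 -0.067). The list summed to 79.4 to 97.3 CPM at P21 and 72.5 to 104 CPM at P28. The part of these cells in the result was not tested. Among 18 vascular markers 2 rose, against 1.9% of all genes tested. Slco1a4, a transporter of brain endothelium, was at 5.79, 4.02, 4.37 and 7.11 CPM at P21 and 13.9, 16.4, 6.52 and 10.4 CPM at P28. Slco1a4 rose, although the ages overlapped (log2 fold change 1.15 ± 0.30 SE, adjusted p = 0.0241). Flt1, a receptor for vascular endothelial growth factor, was at 9.25, 4.91, 6.37 and 8.45 CPM at P21 and 12.7, 19.9, 10.8 and 11.4 CPM at P28. Flt1 was higher in each P28 library than in any P21 library (log2 fold change 0.92 ± 0.27 SE, adjusted p = 0.0473). That list summed to 182 to 209 CPM at P21 and 192 to 271 CPM at P28, its median log2 fold change being 0.37. Gjc3, a connexin of oligodendrocytes, rose from 4.65–6.0 CPM at P21 to 7.63–8.73 CPM at P28 (log2 fold change 0.58 ± 0.16 SE, adjusted p = 0.035) as the 1 of 18 oligodendrocyte markers. Apbb1ip lost its call without any 1 of P21 replicates 2 and 4 (adjusted p up to 0.072) and Dock2 without any 1 of the 8 libraries (adjusted p up to 0.137). Slco1a4 lost its call without any 1 of P21 replicates 2 and 3 and P28 replicates 1 and 2 (adjusted p up to 0.12) and Flt1 without any 1 of P21 replicates 2, 3 and 4 and P28 replicates 1 and 2 (adjusted p up to 0.237). Gjc3 lost its call without any 1 of P21 replicates 2, 3 and 4 and P28 replicates 2, 3 and 4 (adjusted p up to 0.112). Apbb1ip, Slco1a4 and Flt1 were also not called with the 8 libraries alone, nor was Flt1 with neuron and oligodendrocyte markers as covariates.

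Among the leading genes that fell, 4933400C23Rik, a gene with no named function, showed the largest change, at 12.1, 15.2, 10.2 and 13.4 CPM at P21 and 4.53, 4.77, 2.92 and 5.11 CPM at P28. 4933400C23Rik fell, its values at the 2 ages lying fully apart (log2 fold change -1.56 ± 0.21 SE, adjusted p = 9.81e-05). Eya4, a phosphatase and transcriptional coactivator, was at 74.5, 94.3, 70.3 and 82.3 CPM at P21 and 44.5, 45.8, 40.8 and 44.7 CPM at P28. Eya4 fell with no overlap between the ages (log2 fold change -0.87 ± 0.14 SE, adjusted p = 0.000708). Myo3b, an unconventional myosin, was at 30.4, 35.9, 32.2 and 46.7 CPM at P21 and 21.6, 16.9, 21.4 and 23.6 CPM at P28. Myo3b was lower in each P28 library than in any P21 library (log2 fold change -0.80 ± 0.13 SE, adjusted p = 0.00125). Both had been lower at P14, at means of 52.2 and 22.5 CPM, than at P21, and neither overlapped between P21 and P28. Sncaip, a partner of α-synuclein, was at 115, 115, 89.8 and 98.5 CPM at P21 and 69, 76.5, 48.8 and 58.8 CPM at P28. Sncaip fell, its values at the 2 ages lying fully apart (log2 fold change -0.72 ± 0.13 SE, adjusted p = 0.00228). Mylip, the ubiquitin ligase that targets the LDL receptor, Plscr4, a membrane scramblase, Zfp945, a zinc finger gene, and Iqck had log2 fold changes of -0.48, -0.52, -0.44 and -0.65. 2310022B05Rik, 6530411M01Rik, C530044C16Rik and Gm17660, whose roles are not given here, had log2 fold changes of -0.48, -0.86, -0.86 and -1.06.

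In glucose and glycogen metabolism 2 of 20 genes changed, against 3.28% of all genes tested: the glucose transporter Slc2a1 rose from 32.5–40.5 CPM at P21 to 41.4–54.5 CPM at P28 (log2 fold change 0.35 ± 0.092 SE, adjusted p = 0.0259), and 1 fell. This was Ppp1r3c, which targets a phosphatase to glycogen, at 63.8, 61.7, 62.6 and 59.9 CPM at P21 and 39.6, 47.1, 53.1 and 45 CPM at P28. Ppp1r3c fell with no overlap between the ages (log2 fold change -0.42 ± 0.099 SE, adjusted p = 0.0125). Pygl, a glycogen phosphorylase chosen after its values were seen, fell as well from 10.6–14.5 CPM at P21 to 6.24–10.6 CPM at P28 (log2 fold change -0.67 ± 0.15 SE, adjusted p = 0.00956). Glud1, glutamate dehydrogenase, was at 426, 511, 506 and 552 CPM at P21 and 414, 375, 366 and 388 CPM at P28. Glud1 was lower in each P28 library than in any P21 library (log2 fold change -0.37 ± 0.077 SE, adjusted p = 0.00555). Slc15a2, a peptide transporter, fell from 151–182 CPM at P21 to 123–150.2 CPM at P28 (log2 fold change -0.33 ± 0.093 SE, adjusted p = 0.0376). These 2 were likewise chosen after their values were seen. Of 20 cholesterol genes Abca1, the exporter of cholesterol to lipoproteins, was the 1 called, at 478, 615, 559 and 720.0 CPM at P21 and 519, 450.0, 413 and 428 CPM at P28. Abca1 fell, although the ages overlapped (log2 fold change -0.39 ± 0.11 SE, adjusted p = 0.0365). P28 replicate 1 was inside the P21 range. Slc2a1 lost its call without any 1 of P21 replicates 2, 3 and 4 and P28 replicates 2 and 3 (adjusted p up to 0.154) and Ppp1r3c without P28 replicate 1 (adjusted p = 0.0568). Pygl lost its call without P28 replicate 2 (adjusted p = 0.0587) and Slc15a2 without any 1 of P21 replicates 2 and 4 and P28 replicates 2, 3 and 4 (adjusted p up to 0.121). Abca1 lost its call without any 1 of P21 replicates 2 and 4 and P28 replicates 2, 3 and 4 (adjusted p up to 0.178). Slc2a1, Pygl, Glud1, Slc15a2 and Abca1 were also not called with the 8 libraries alone. No gene was called in the lists of fatty acid metabolism, respiratory chain, ribosomal proteins, cell cycle, p53 targets, heat shock, circadian clock, synapse-regulating factors, FGF and EGF family, chromatin or motile cilia. These 11 lists held 213 genes tested, of which 27 had an unadjusted p below 0.05 and 2 were called by DESeq2. Immediate early genes had a median log2 fold change of 0.47, 17 of 20 being positive (Fos 0.37, Arc 1.06, Npas4 0.92), with none called by edgeR or DESeq2 and 7 at an unadjusted p below 0.05. Their sum was 267 to 454 CPM at P21 and 281 to 637 CPM at P28. Interferon response genes had a median of -0.54, 16 of 19 being negative (Ifit3 -0.91, Oasl2 -1.35), with none called by edgeR, 1 by DESeq2 and 7 at an unadjusted p below 0.05. In NR GR-KO the same step had a median of -1.30 for this list with 12 genes called lower, and no member passed the test of the difference between the 2 rearings. Over all genes tested the median was -0.0041. Genes on the other strand cover 16.9% of Slc2a1.

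The same week was then read in 2 sets of libraries that share none with those compared here. In the 8 libraries of DR GR-Con, where GR was left intact, 669 genes were called (3.91% of those tested, 2.2% higher and 1.71% lower). In the 6 libraries of NR GR-KO, where light was present, 469 were called (2.74%, 1.6% higher and 1.15% lower). The NR GR-KO libraries held 19049254 to 28137389 counts at P21 and 38884987 to 48844115 at P28, so depth and age went together there. The numbers of called genes are therefore not a like comparison of the groups. Of the 561 genes called in DR GR-KO, 513 (91.4%) had the same sign in DR GR-Con, against 58.8% of all genes tested, and 514 (91.6%) in NR GR-KO, against 62.2%. Genes called in both with the same direction were 114 for DR GR-Con, which is 20.3% of the list here and 17% of the list there, and 135 for NR GR-KO, 24.1% and 28.8%, and none was called in opposite directions. The genes that rose here had a median log2 fold change of 0.60, against 0.34 in DR GR-Con and 0.51 in NR GR-KO, and those that fell had -0.54, against -0.23 and -0.26. Since these genes were chosen for a large change in DR GR-KO, smaller values elsewhere are not a comparison of the groups.

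Single genes show how the 3 groups stood side by side. Ikzf1 changed by 1.17 here, 1.00 in DR GR-Con and 1.30 in NR GR-KO on the log2 scale, and Dock10 by 0.74, 0.77 and 0.86, each of them called in all 3. Prelp changed by 1.26, 0.65 and 0.16, and was not called in NR GR-KO. Of the 20 BMP and TGF-β pathway genes, 4 were called lower and 1 higher here, and 3 lower and 1 higher in DR GR-Con. In NR GR-KO 0 were called in either direction. Single genes of the pathway and their targets varied: Id3 had -0.57, -0.23 and -0.12, Smad6 -0.59, -0.26 and -0.082, and Bmpr1a -0.38, -0.056 and -0.13. Id2 had -0.41 here, -0.50 in DR GR-Con, where it was also called, and 0.085 in NR GR-KO. The differences for Id3 did not pass the test, either from DR GR-Con (-0.34 on the log2 scale, 95% interval -0.59 to -0.10, adjusted p = 0.446) or from NR GR-KO (-0.45, -0.72 to -0.19, adjusted p = 0.348), and the same held for Id1, Id2, Smad6, Smad9 and Bmpr1a. Id3 at P21 was at a mean of 47.5 CPM in DR GR-KO, 37.5 in DR GR-Con and 33.7 in NR GR-KO, and at P28 at 31.9, 32 and 31 CPM, so the means were further apart at the first age than at the second.

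**Figure D5:**
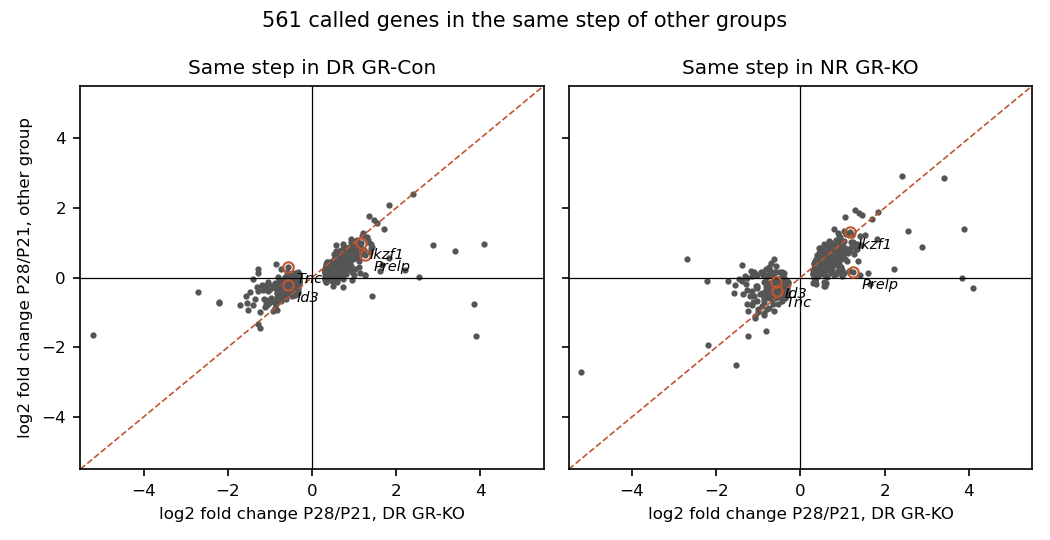
Log2 fold change from P21 to P28 for the 561 called genes in DR GR-KO (horizontal axis) against the same step in DR GR-Con (left) and NR GR-KO (right), with the dashed line marking equal change. Most points lie in the quadrants of equal sign (513 and 514 of 561), nearer to 0 than the line, and Tnc lies above 0 in DR GR-Con.

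The change with age differed between DR and NR in GR-KO for 1 gene (0.00585% of those tested by edgeR, 1177 at an unadjusted p below 0.05, and 21 genes by DESeq2). This was Ubb-ps, a pseudogene of the ubiquitin gene Ubb, whose reads may belong to near-identical copies. It was at 13, 13, 13.4 and 9.09 CPM at P21 and 8.11, 18.3, 17.2 and 16.3 CPM at P28 in DR GR-KO, and went from 1.25 to 3.18 CPM at P21 to 10.1 to 15.7 CPM at P28 in NR GR-KO (difference -2.23 ± 0.36 (SE), adjusted p = 0.00677). The low values were those of the P21 NR GR-KO libraries, and without P21 NR GR-KO replicate 1 the call was lost (adjusted p = 0.0586). These libraries held fewer counts than the P28 NR GR-KO libraries, and the part of depth in this difference was not tested. It was not called in DR GR-KO alone (adjusted p = 0.481).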

How the data were processed

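V1 nuclear RNA from 40 libraries in 12 groups was used as the authors deposited it, in 1 table of read counts per gene for 25239 genes. According to the study's methods, reads were aligned with STAR to mm10 and the deposited counts were made with featureCounts (Subread) over gene bodies, exons and introns, of the UCSC refGene annotation. All 40 libraries were fitted with edgeR 4.0.16 (R 4.3.3) in 1 quasi-likelihood model of 12 group means after filterByExpr and TMM normalization, and p-values were adjusted by Benjamini-Hochberg over 17106 genes. CPM are those of TMM-scaled libraries. Each SE was taken from the fold change and its F statistic. The age steps of 3 groups, the 2 interactions, DESeq2 1.42.0 and the alternatives of the closing section were run. Scripts were tested on simulated data.

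The genes named are Nr3c1, the 20 called genes of smallest p in each direction with 5 CPM or more in either group and no overlap between ages, up to 6 called members of each of 42 gene lists, the study's marker and matrix genes, and the genes called in an interaction; others are said to have been chosen after their values were seen. Some genes that the rule names are not reported here. The comparison, the lists and the rule were chosen with earlier results of these data known. Gene bodies and overlaps are from GENCODE M21 (GRCm38), and promoters from RefSeq. Replicates are pools from different mice. Counting error is small at this depth, and the spread between pools sets the precision. Replicate chi-square statistics per degree of freedom ran from 9.23 to 152 over 12 pairs, so no library was a copy of another.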

Additional observations from a re-analysis of the deposited data

Results flagged for a closer look

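In groups of 4 libraries, a value was singled out when its gap to the nearest other value took up most of the group's range, a rule that chance meets in about 1 of 20 groups, and 11 of 254 sets of values met it. Among P21 DR GR-KO libraries these were Trank1 in replicate 3 (91.0 CPM, others 72.1 to 74.7), Rarb in replicate 1 (43.6 CPM, others 33.8 to 35.3), Ubb-ps in replicate 4 (9.09 CPM, others 13.0 to 13.4) and Nr3c1 in replicate 4 (284 CPM, others 270.2 to 272). Among P28 DR GR-KO libraries they were Nr3c1 in replicate 1 (309 CPM, others 242 to 252), Bmpr1a in replicate 1 (202 CPM, others 193 to 193.5), Gm5468 in replicate 1 (5.92 CPM, others 5.01 to 5.11), Sema3e in replicate 2 (41.8 CPM, others 34.2 to 35.0), Ablim3 in replicate 3 (14.3 CPM, others 16.1 to 16.4) and Grb10 in replicate 4 (28 CPM, others 25.4 to 25.8). In P21 DR GR-Con it was Id3 in replicate 3 (42.7 CPM, others 35.3 to 36.1).

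In all, 2 genes changed differently with age in 2 groups by the test of the difference itself: Tnc between GR-KO and GR-Con in the dark (-0.88 on the log2 scale) and Ubb-ps between DR and NR in GR-KO (-2.23).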

How the results depend on the processing

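The count of 561 genes for the age step became 17 with the fold limit inside the test (glmTreat), 304 with the 8 libraries fitted alone (276 in common) and 1046 with each library's slope of expression on gene length as a covariate (560 in common, an alternative chosen after seeing the data). The other alternatives (no fold limit, DESeq2 size factors, no filter, marker covariates, the 20 most abundant genes left out, DESeq2's Wald test) gave 504 to 763. Leaving out 1 library gave 202 to 632. Of 94 named called genes, 50 kept their calls in all 8 of these fits and 2, Jag2 and Dock2, in none. With the 8 libraries fitted alone 29 of the 94 lost their calls. With the fold limit inside the test 83 of the 94 lost theirs, among them Id3, Smad6, Bmpr1a, Tnc, Apc, Gfap, Meg3 and Ryr2.

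For the interaction with genotype, the 1 gene became 0 with marker covariates and 2 with the length covariate, and leaving out 1 library gave 0 to 1. For the interaction with rearing, 1 became 0 with the groups compared fitted alone, 6 with marker covariates, 18 with the length covariate and 21 with DESeq2's Wald test, and leaving out 1 library gave 0 to 5. With replicate number as a block there were 596 genes for the age step, 0 for genotype (Tnc, adjusted p = 0.0778) and 1 for rearing. Same-numbered P21 and P28 libraries of DR GR-KO deviated with correlations of -0.24 to 0.0297, and no P28 library matched its own number best. Those of DR GR-Con had -0.0417 to 0.202, with 2 of 4 matching their own number best. Between GR-KO and GR-Con they had 0.0865 to 0.303 at P28, with 3 of 4 matching best, and -0.0889 to 0.0313 at P21, with 1 of 4. In NR GR-KO, P28 against P21, they had -0.0793 to 0.124, with 1 of 3. Since none of these sets exceeded 0.1 in every pair, the numbers were not taken as pairs. The cause of these shifts was not tested.

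Near 0, 5 uncalled genes changed sign: Adamts12 (-0.031 with marker covariates, -0.0080 with the length covariate, -0.13 to 0.084 with 1 library left out), Adamts16 (-0.0019 with marker covariates, -0.046 to 0.089), Gjb6 (-0.0062 to 0.14), Mmp14 (-0.037 to 0.057) and Etnppl (-0.19 to 0.084).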
